A study of Gallus gallus with 18 samples.

Results

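The 200 loci described here are the most highly counted transcribed regions of the hen's shell gland that carry no Ensembl identifier in the deposited table. The authors gave such loci numbers of their own, such as Novel03251. The loci were chosen by level alone: each count was scaled to a library total of 1000000 over all rows (CPM), and the 200 rows numbered this way with the highest mean CPM over 18 libraries were kept. They are 200 of 3758 unannotated rows, in a table of 20866 rows whose other 17108 rows carry Ensembl chicken identifiers (prefix ENSGALG). The mean CPM of each locus is therefore a description and is not tested. Differences between groups of libraries were not used directly to choose the loci. A mean over 18 libraries can, however, admit a locus through a period or group in which it is high. Counts of called loci and the changes named below are thus not fully independent of the choice, and the size of this effect was not tested.

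The shell gland, or uterus, is the part of the oviduct where the hen deposits the calcified shell around the egg. Its lining moves calcium and bicarbonate into the uterine fluid and secretes the proteins of the shell matrix, and its activity follows the egg through the start of calcification, the linear phase of shell growth and the arrest of calcification before laying. A transcribed region outside an annotation can be an unannotated gene, an extension or unlinked exon of a known gene, or a noncoding or antisense transcript. Only the form of their numbers marks these loci as unannotated. The files give no name, coordinate, length, strand or sequence for them, and 0 identifiers of the table could be matched to RefSeq's table of chicken genes (assembly GRCg7b), so no function is given for any locus and no sequence is shown. Since lengths are unknown, CPM compares libraries for 1 locus, and an order of loci by CPM is not an order of transcript abundance.

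The hens were Hy-Line Brown, a commercial brown-egg layer, 42 weeks old, and RNA was taken from their uterus. Hens laying hard shells formed the high strength group and hens laying weak shells the low strength group, and each was sampled at initiation, growth and termination of calcification, giving 6 groups of 3 libraries named below by strength and period (high initiation, low growth and so on). All were total RNA made into libraries with a TruSeq kit primed with random oligonucleotides, and no treatment or genotype separated the groups. The labels number the libraries within a group without saying that each is another hen. P-values therefore reflect only how far these samples spread, and some of that spread may be technical.

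Libraries held 13322102 to 16125109 counts. CPM below is scaled to each library's total, whereas log2 changes and, where said, log2 CPM are also divided by TMM factors, which scale libraries to the bulk of their rows. High termination replicate 3 stood apart from the other 2 libraries of its group: by TMM-scaled log2 CPM, 21 of the 200 loci (10.5%) lay nearer in it to the mean of both growth groups than to the low termination mean, against 121 in replicate 1 and 123 in replicate 2. The same held for ENSGALG rows of like level, with 13.3% in replicate 3 against 73.0% and 78.1% in the others. That library had a GC content of 51.8% and a TMM factor of 0.824, against 49.3% and 50.01% and 1.002 for both in replicates 1 and 2, and low termination had 51.9% ± 1.22 and 0.779 ± 0.116 (SD, n = 3). The part of GC content and of these factors in the results was not tested. Most tests of the loci that involve high termination are given with and without that library. The share of bases at quality 30 was 91.6% ± 0.0503 in high initiation and 94.7% ± 0.445 in low initiation (SD, n = 3), its part in differences between these groups was not tested, and cell type markers could not be checked because the table holds no gene names. In such tissue samples, fewer cells of a type and less RNA per cell cannot be told apart.

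The 200 loci held 5.49% of all counts on average over the 18 libraries, and 62.2% of the counts of all unannotated rows. Their share was 6.35% ± 0.524 in high initiation, 5.10% ± 0.165 in high growth, 5.51% ± 0.755 in high termination (5.08% without replicate 3), 5.19% ± 0.259 in low initiation, 4.87% ± 0.182 in low growth and 5.94% ± 0.246 in low termination (SD, n = 3 each). The 3 high initiation libraries lay above all low initiation libraries, and the 3 low termination libraries above all growth libraries. A single locus, Novel03251, held 0.976% of all counts and 17.8% of those of the 200. Without it the share was 4.54% ± 0.433, 4.75% ± 0.121, 4.66% ± 0.0828, 4.38% ± 0.0615, 4.52% ± 0.176 and 4.27% ± 0.177 in the same order of groups, so that low termination turned from above the growth groups to below their means. All unannotated rows together held 10.4% ± 0.385 of counts in high initiation and 7.69% ± 0.210 in low growth, the highest and lowest of the 6 group means.

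**Figure D1:**
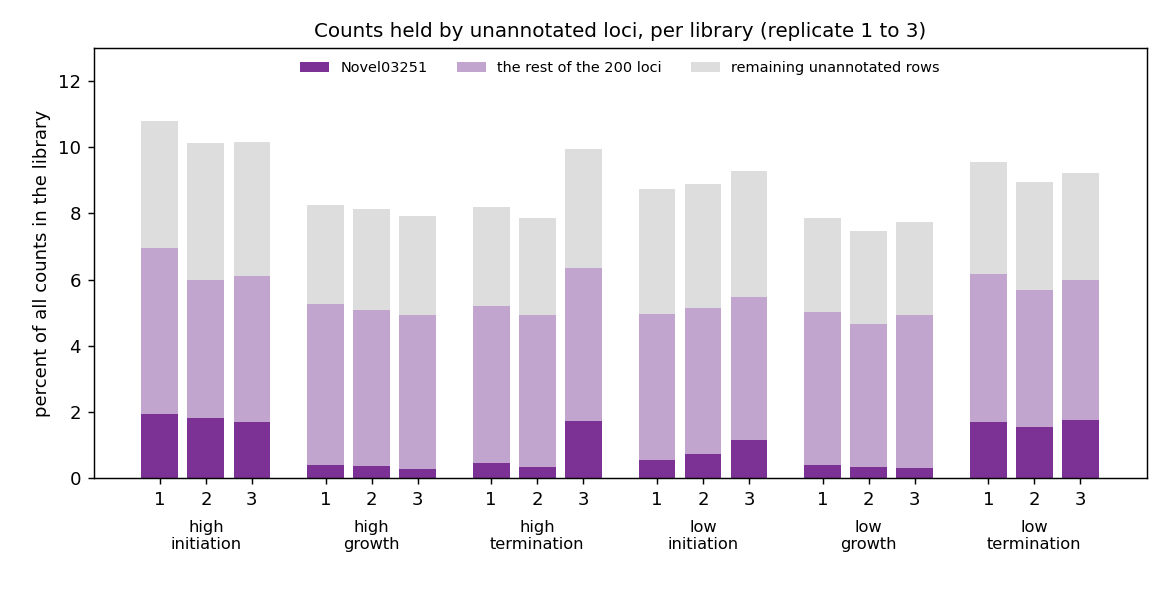
Percent of all counts (y axis, from 0) in each of the 18 libraries (x axis, replicates 1 to 3 within 6 groups) held by Novel03251, by the rest of the 200 loci and by the remaining unannotated rows, stacked. Novel03251 takes 1.69% to 1.94% in the high initiation libraries, 0.298% to 0.413% in the growth libraries and 1.73% in high termination replicate 3, against 0.458% and 0.357% in replicates 1 and 2 of that group.

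Levels fell steeply with rank. The first 10 loci held 39.9% and the first 50 held 68.4% of the counts of the 200. Only 5 ENSGALG rows had a higher mean CPM than Novel03251, and 2517 lay between the lowest and highest of the 200. All 200 loci had counts in every library except Novel03336, which had 0 counts in high termination replicate 1, where a count of 0 allows up to 0.204 CPM (3 counts, counting error only). At the lower edge, Novel00269 and Novel00618 were kept at 73.3 and 72.1 CPM, and Novel00807 and Novel00696 fell just outside at 71.6 and 71.2 CPM.

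Novel03251, the locus with the highest mean at 9759 CPM, was high at initiation, low in growth and high again in low termination and in high termination replicate 3. It had 19379.9, 18248 and 16887 CPM in high initiation, 3904, 3723 and 2979 CPM in high growth and 4584, 3567 and 17257 CPM in high termination. In the low strength group it had 5409.7, 7244 and 11555 CPM at initiation, 4127, 3514 and 2999 CPM in growth and 17064, 15606 and 17619.6 CPM at termination. All 6 growth libraries were below all 6 initiation libraries, and the low termination libraries and high termination replicate 3 were at the level of high initiation, whereas replicates 1 and 2 of high termination stayed near growth. The log2 change from initiation to growth, averaged over the strength groups, was -1.71 ± 0.39 (SE; adjusted p = 0.00243 by Benjamini-Hochberg from edgeR's quasi-likelihood test). From growth to termination it was 2.10 ± 0.39 (SE; edgeR adjusted p = 0.00103), and 1.48 without high termination replicate 3 (edgeR adjusted p = 0.000217). Within the high strength group this change, 1.54 ± 0.54 (SE), did not pass the test (edgeR adjusted p = 0.0990). That estimate includes high termination replicate 3, the only library of its group far above growth, and is not given without it. In the low strength group the change from growth to termination was 2.67 ± 0.57 (SE; edgeR adjusted p = 0.00318). The high minus low difference at initiation, 1.20 ± 0.54 (SE), did not pass the test (edgeR adjusted p = 0.207), although the libraries of these groups did not overlap. In the fit without high termination replicate 3 the same difference passed (1.20 ± 0.31 SE, edgeR adjusted p = 0.0181), one of 2 alternatives of 25 in which it did.

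The next loci by level had other profiles. Novel01701, at a mean of 2162 CPM, had 978, 1269 and 1019 CPM in high initiation, 1109, 2244 and 2042 CPM in high growth and 5939, 5047 and 3022 CPM in high termination, with 3789, 1712 and 2197 CPM in low termination. Its initiation libraries were all below its termination libraries, a log2 difference of 2.03 ± 0.20 (SE; edgeR adjusted p = 2.78e-06), and 2.11 without high termination replicate 3. Novel01735, at 2153 CPM, had 486, 764 and 601 CPM in high initiation and 461, 525 and 836 CPM in low initiation, against 2753, 4018 and 3307 CPM in high growth and 3654, 4194 and 3851 CPM in low growth. The growth libraries were all higher, by 2.63 ± 0.28 on the log2 scale (SE; edgeR adjusted p = 8.58e-06). Novel01392, at 1623 CPM, was the most uneven of these, with 549, 9.35 and 2209 CPM in the 3 high termination libraries, so that 1 library of that group held almost none of it. Its change from initiation to growth was -2.27 ± 0.78 (SE; edgeR adjusted p = 0.0228), a call that was lost in 4 of 24 alternatives. The remaining loci of the first 10 were Novel03647 and Novel03719 (1323 and 1313 CPM), Novel00031 and Novel00304 (987 and 883 CPM) and Novel02792 and Novel02791 (974 and 769.9 CPM), which form 3 pairs of rows with like counts.

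Such pairs ran through the list. For each locus, the nearest row was taken as the row, among 10169 with a mean of at least 10 CPM, whose log2 count ratio to it had the smallest SD over the 18 libraries. For 28 of the 200 loci (14.0%) this SD was under 0.05, and in every such case the nearest row was another of the 200, giving 14 pairs. Among the 2517 ENSGALG rows of like level, 1 (0.0397%) had a row that near. At an SD under 0.1 the counts were 70 of 200 (35.0%) and 399 of 2517 (15.9%). For 64 of the 70 loci the nearest row was unannotated, and for 6 it was an ENSGALG row. The median SD to the nearest row was 0.136 for the loci and 0.141 for the ENSGALG rows. The loci thus differed from these rows at the small limits and hardly at the median. These measures, limits and the pairs named from them were chosen after the values were seen, and they are a description without a test.

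In the tightest pairs the counts themselves were almost the same. Novel02133 had 1664 to 2449 counts over the libraries and Novel02233 had 1691 to 2477, and Novel02233 was higher in 18 of 18 libraries, by 7 to 67 counts (SD of the log2 ratio 0.0084). Novel02787 had 3080 to 4423 counts and Novel02788 had 3014 to 4381, lower in 18 of 18 libraries by 19 to 92 counts. The 3 pairs of loci with the highest correlation of TMM-scaled log2 CPM over 18 libraries were Novel00025 with Novel00292, Novel01118 with Novel01269, and Novel03647 with Novel03719 (Pearson's r = 0.9997, 0.9997 and 0.9996, all from the same libraries). Novel01118 and Novel01269 spanned 273 to 3824 and 270.0 to 3803 counts and differed by at most 74 counts in any library. A chi-square of the paired counts per degree of freedom, which is near 1 for reads drawn separately at a constant ratio, was under 1 in 10 of the 14 pairs, with a median of 0.492 and a range of 0.0360 to 2.06. Neither the counter nor its strand setting is given in the sources used here. Whether the rows of a pair share reads was not tested, nor was the origin of the pairs.

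The numbers of paired rows also followed an order. Taking pairs of unannotated rows that were each other's nearest row at an SD under 0.15 gave 42 pairs, which held 80 of the 200 loci (40%), with both rows among the 200 in 38 pairs. In 6 pairs the numbers were consecutive, as in Novel02791 and Novel02792, and in 36 they were 11 to 273 apart (median 105.5). When the latter were sorted by the lower number, the higher number rose at 35 of 35 steps, so the pairs ran in parallel through the numbering. The 11 pairs with a gap above 200 all had a lower number of at most 194 and a gap of 258 to 273. Novel00065 and Novel00335, 270 numbers apart like Novel00059 and Novel00329, were not each other's nearest row (SD 0.33) but correlated at r = 0.997 over the 18 libraries, and were looked up after their values were seen. Among the 24 pairs of loci with consecutive numbers the median correlation of TMM-scaled log2 CPM was 0.645, against 0.0820 over the 19876 other pairs, and 8 of 24 (33.3%) against 216 of 19876 (1.09%) were above 0.9. The correlations ranged from -0.743 to 0.999 for consecutive numbers and from -0.961 to 0.9997 for the others. These 8 include the 6 consecutive pairs counted above, so they are not a separate observation.

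**Figure D2:**
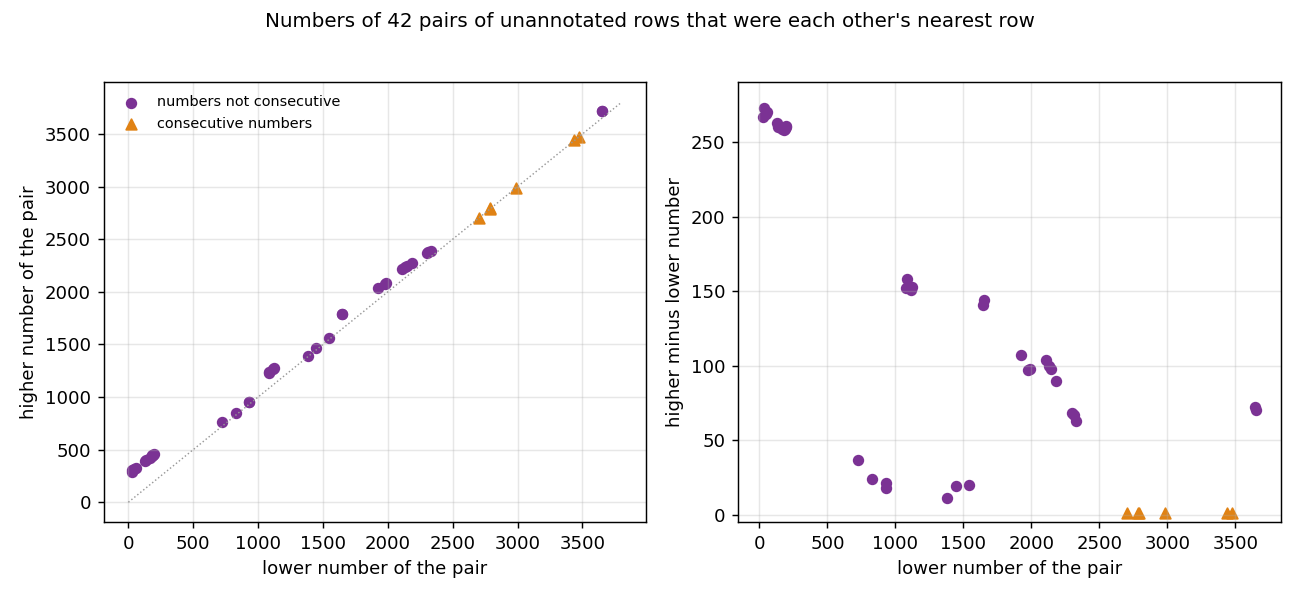
Left, higher against lower number for 42 pairs of rows that were each other's nearest row (triangles, consecutive numbers; circles, other pairs; dotted line, equality); right, the difference of the numbers against the lower number. The circles rise without a step back, and their difference is 258 to 273 below number 200 and at most 158 elsewhere.

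Counts of loci below include both rows of such pairs, and whether these are separate measurements was not tested. Of the 38 pairs with both rows in the list, 14 had both rows called and 3 had 1 row called from initiation to growth, and no pair was called in opposite directions in any of the 8 signed comparisons. Pairs were picked for a nearly constant ratio over these same libraries, which leaves little room for opposite calls, so this is not a separate observation. Keeping 1 locus of each such pair left 162 loci.

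From initiation to growth more of the 200 loci fell than rose. A total of 70 fell and 39 rose (edgeR's quasi-likelihood test over 16110 rows, adjusted p below 0.05 by Benjamini-Hochberg), which is 109 of 200 beside 55.7% called of all rows tested, 27.1% higher and 28.6% lower. All 200 loci entered the test, since their level chose them. Among the 2517 ENSGALG rows of like level 33.2% rose and 25.7% fell, against 19.5% and 35.0% of the loci. The median log2 change of the loci was -0.19, beside -0.05 over all rows tested, and the 3183 other unannotated rows tested had a median of -0.37. Within the 50 highest loci 18 were called (11 higher, 7 lower), 36.0% against 68.1% of the ENSGALG rows in that range of CPM. With 1 locus of each pair, 94 of 162 were called, 33 higher and 61 lower.

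The 2 largest rises were in Novel00335 and Novel00065, the pair 270 numbers apart. Novel00335 had 14.8, 20.5 and 15.5 CPM in high initiation and 379, 987 and 557 CPM in high growth, and 19.1, 16.4 and 12.5 CPM in low initiation and 653, 756 and 1228 CPM in low growth. Every growth library was above every initiation library, and the log2 change was 5.59 ± 0.38 (SE; edgeR adjusted p = 1.94e-07). Novel00065 rose from 41.7, 49.5 and 38.8 to 614, 1532 and 904 CPM in the high strength group and from 48.6, 47.7 and 37.3 to 1121, 1327 and 2081 CPM in the low strength group, again with no overlap (log2 change 4.89 ± 0.38 SE, edgeR adjusted p = 5.67e-07). Low growth replicate 3 alone held 23.1% of its summed CPM, and over the 18 libraries the CPM of Novel00065 was 1.55 to 2.98 times that of Novel00335.

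The largest falls were smaller. Novel00079 had 226, 173 and 232 CPM in high initiation and 296, 304 and 301 CPM in low initiation, and 22.5, 47.2 and 43.4 and 39.2, 32.4 and 45.3 CPM in the growth groups. The growth libraries were all lower, by a log2 change of -2.64 ± 0.27 (SE; edgeR adjusted p = 6.86e-06). Novel02330 fell from 128, 161 and 149 CPM in high initiation to 36.98, 27.4 and 51.9 CPM in high growth and from 158, 151 and 232 to 13.5, 34.8 and 19.1 CPM in the low strength group, without overlap (log2 change -2.38 ± 0.50 SE, edgeR adjusted p = 0.00147). Without high termination replicate 3, 79 loci fell and 41 rose, and the share of all rows called in that fit is not given here.

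The period of the lowest level depended on scaling. By the mean of TMM-scaled log2 CPM, 108 of the 200 (54.0%) were lowest in growth, against 37.8% of the ENSGALG rows of like level, and 45 (22.5%) were highest there, against 41.4%. Termination was the highest period for 84 loci and initiation for 71. By group, 71 loci (35.5%) had their highest mean in high initiation, against 18.4% of the ENSGALG rows. The counts by group are of CPM scaled to library totals. Scaled in that way by period too (log2 of CPM + 1), 86 loci (43.0%) were lowest in growth and 85 (42.5%) at termination, against 27.8% and 55.1% of the ENSGALG rows, and 120 were highest at initiation, 48 in growth and 32 at termination. On both scales a larger share of the loci than of these rows was lowest in growth and a smaller share was highest there.

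**Figure D3:**
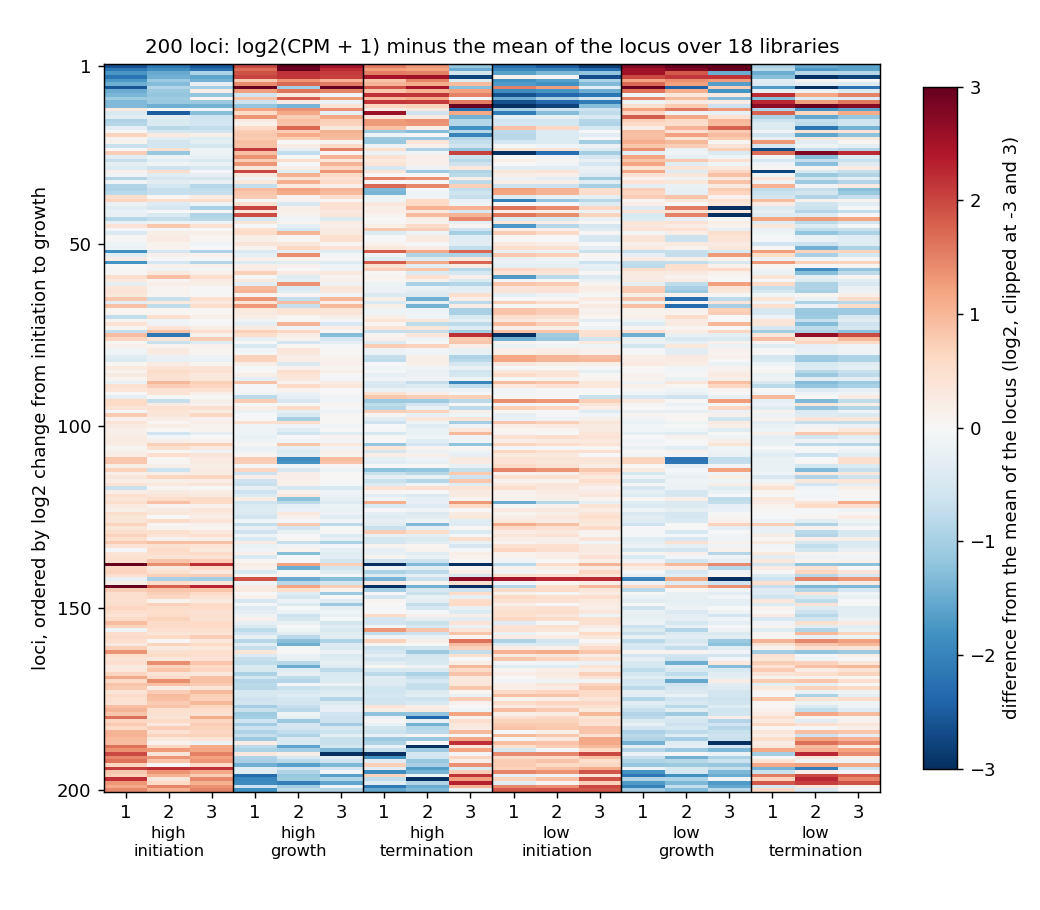
Log2(CPM + 1), scaled to library totals, of each of the 200 loci (rows, ordered by the log2 change from initiation to growth) minus its mean over the 18 libraries (columns, replicates 1 to 3 of 6 groups), clipped at -3 and 3. The lower rows are red at initiation and blue in growth in both strength groups. On this scale 59.0% and 66.0% of the loci lie nearer to growth than to low termination in high termination replicates 1 and 2. In replicate 3 of that group 12.5% do. Single dark blue cells mark loci that are nearly absent from 1 library.

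From growth to termination the balance turned. Of the 200 loci 83 rose and 44 fell (edgeR quasi-likelihood test), 127 in all beside 54.9% called of all rows tested, 28.5% higher and 26.4% lower. Among ENSGALG rows of like level 754 of 2517 rose and 671 fell. The median log2 change was 0.30 for the loci and 0.01 for all rows tested. This balance depended on scaling: with total counts in place of TMM factors 51 loci rose and 57 fell, 47.2% higher among the called against 65.4%, and the median of all rows moved to -0.28 while that of the loci was 0.00029, so the loci stayed above the median row by a like margin. Without high termination replicate 3, 68 rose and 43 fell, and the share of all rows called in that fit is not given here. With 1 locus of each pair 106 of 162 were called.

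Novel00112 and Novel01203 rose most. Novel00112 had 12.6, 11.2 and 16.1 CPM in high growth and 14.8, 19.1 and 14.7 CPM in low growth, against 38.9, 26.5 and 251 CPM in high termination and 185, 216 and 190.3 CPM in low termination. Termination libraries were all higher than growth libraries, but high termination replicates 1 and 2 were far below replicate 3 and the low termination libraries. The log2 change was 3.68 ± 0.51 (SE; edgeR adjusted p = 0.000121), and 2.72 without high termination replicate 3. Novel01203 rose from 26.2, 61.02 and 42.5 to 214, 121 and 599 CPM in the high strength group and from 29.3, 36.5 and 47.6 to 392, 529.5 and 469.7 CPM in the low strength group (log2 change 3.61 ± 0.38 SE, edgeR adjusted p = 1.28e-05; 3.07 without that library).

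The largest falls were again in Novel00335 and Novel00065. Novel00335 had 280.1, 238 and 42.2 CPM in high termination and 49.4, 32.6 and 30.7 CPM in low termination, all below its growth libraries, with high termination replicate 3 at the level of low termination. Its log2 change from growth was -2.89 ± 0.34 (SE; edgeR adjusted p = 2.96e-05), and -2.67 without that library. Novel00065, with 453, 433 and 66.7 and 111, 57.1 and 62.1 CPM at termination, changed by -2.73 ± 0.34 (SE; edgeR adjusted p = 5.46e-05), and by -2.50 without it.

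**Figure D4:**
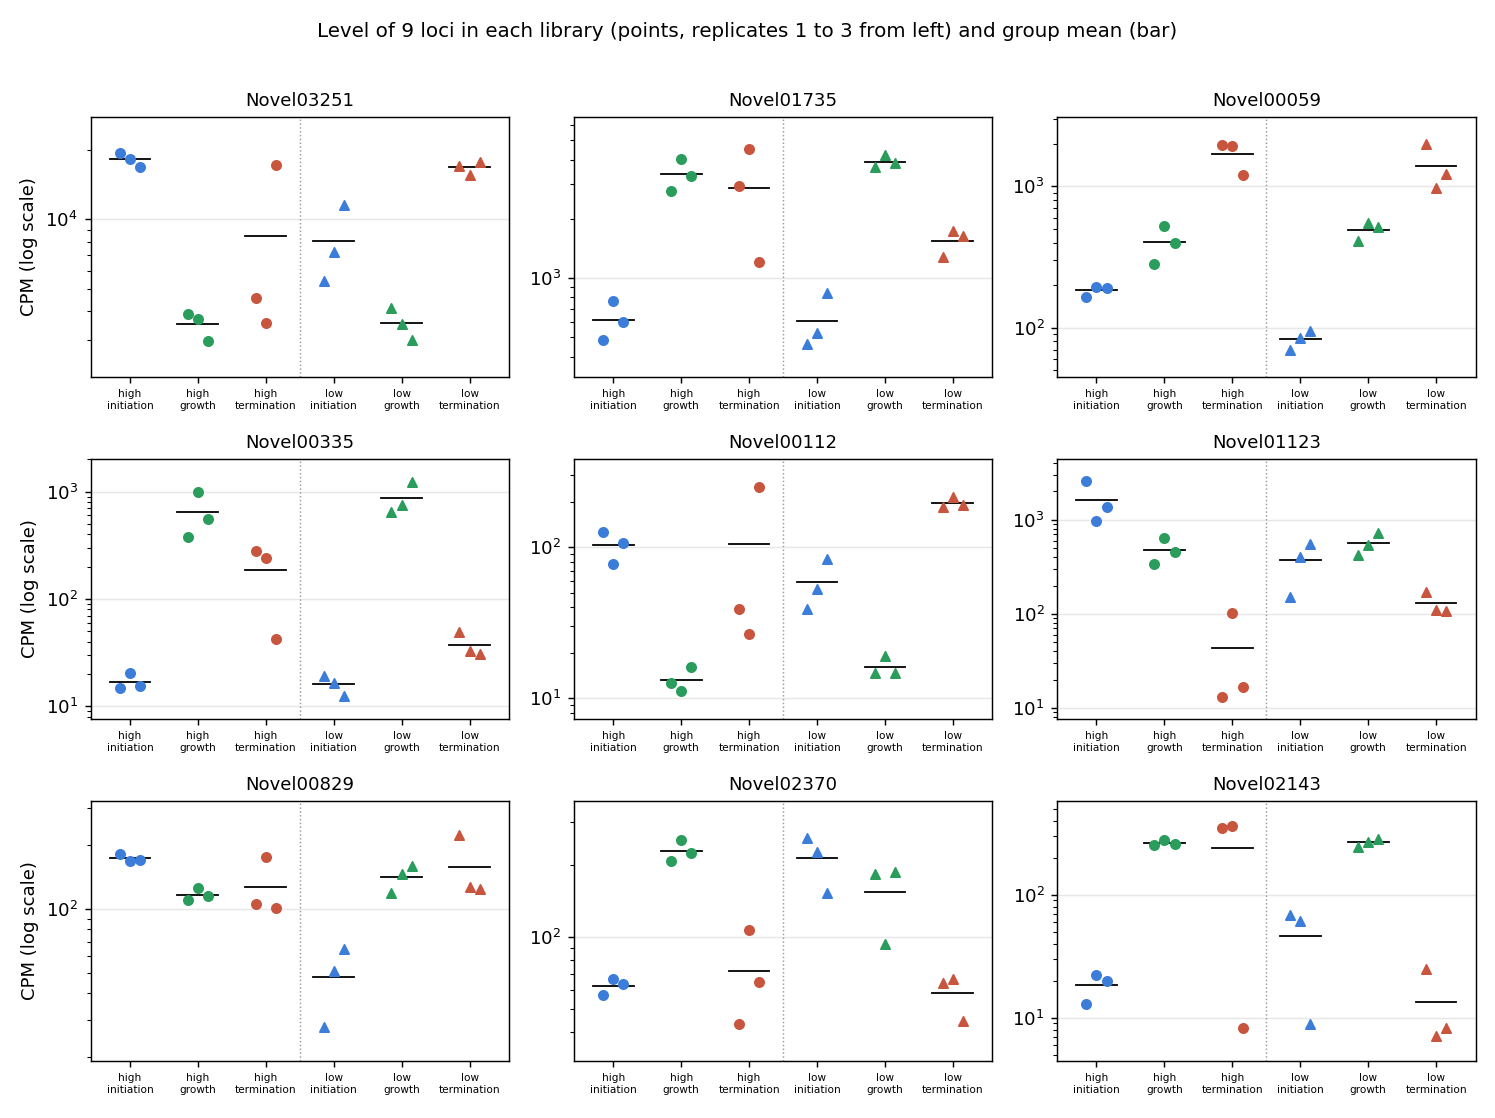
CPM (log axis) of 9 loci in each library (points, replicates 1 to 3 from left; circles, high strength; triangles, low strength; bars, group means) at initiation, growth and termination. Novel03251 and Novel00112 dip in growth, Novel00335 peaks there, Novel00059 rises at each step, and in high termination the replicate 3 point lies apart from replicates 1 and 2 for Novel03251, Novel00335, Novel00112 and Novel02143.

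The step from growth to termination passed the test for fewer loci in the high strength group than in the low strength group. In the high strength group 26 rose and 19 fell (45 loci, beside 7.66% of all rows tested, 4.61% higher and 3.05% lower), and in the low strength group 77 rose and 32 fell (109 loci, beside 55.1%, 27.3% higher and 27.9% lower). Of the ENSGALG rows of like level 10.2% and 57.4% were called. The difference between the strength groups was not tested for this step alone. Single libraries moved the high strength count to between 20 and 63, with 36 loci called without high termination replicate 3, and a fit to the high strength libraries alone called 17. Shares of all rows called in these alternatives are not given here, so these shifts may not be particular to the loci. In the low strength group total-count scaling gave 41 rises and 54 falls, 43.2% higher among the called against 70.6%, with the median of all rows at -0.39.

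The same loci led the rises in both strength groups. Novel00112 rose by 3.30 ± 0.71 (SE; edgeR adjusted p = 0.00964) in the high and by 4.05 ± 0.73 (SE; edgeR adjusted p = 0.00163) in the low strength group, and without high termination replicate 3 the first value was 1.39. Novel01203 rose by 3.14 ± 0.53 (SE; edgeR adjusted p = 0.002) and 4.08 ± 0.56 (SE; edgeR adjusted p = 0.000337), the first being 2.06 without that library. The loci with the largest falls differed between the strength groups, although some were called lower in both. In the high strength group they were Novel01123 and Novel01276, a pair of rows 153 numbers apart. Novel01123 went from 334, 635 and 454 CPM in high growth to 13.1, 102 and 16.8 CPM in high termination, without overlap (log2 change -3.29 ± 0.70 SE, edgeR adjusted p = 0.00927), and its change was -2.94 without that library. In the fit to the high strength libraries alone the calls of Novel00112, Novel01123 and Novel01276 were lost, with adjusted p = 0.0722 for Novel01123 (edgeR), and those of Novel00112 and Novel01276 were also lost without high growth replicate 2. In the low strength group they were Novel00335, with a log2 change of -4.14 ± 0.51 (SE; edgeR adjusted p = 0.000177), and Novel02143. Novel02143 went from 246, 271 and 283 CPM in low growth to 24.9, 7.10 and 8.20 CPM in low termination (log2 change -3.97 ± 0.92 SE, edgeR adjusted p = 0.00429). In high termination it had 349.6, 365 and 8.23 CPM, so replicates 1 and 2 stayed at the growth level and replicate 3 did not. Its change in the high strength group was -0.05 ± 0.81 (SE; edgeR adjusted p = 0.983). Novel00335 was called lower there too (-1.64 ± 0.46 SE, edgeR adjusted p = 0.0387). In the low strength group Novel01123 was also called lower (-1.72 ± 0.66 SE, edgeR adjusted p = 0.0380). Novel01276 was not called there (-1.60 ± 0.71 SE, edgeR adjusted p = 0.0648).

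Termination differed from initiation for 71 of the loci, 40 higher and 31 lower (edgeR quasi-likelihood test), beside 24.2% called of all rows tested, 12.4% higher and 11.8% lower. Among ENSGALG rows of like level 20.5% were higher and 10.1% lower. The median log2 difference was 0.06 for the loci and 0.05 for all rows tested. With total-count scaling 26 were higher and 75 lower, 25.7% higher among the called against 56.3%, and the medians were -0.33 and -0.34. Without high termination replicate 3, 40 were higher and 41 lower, and the share of all rows called in that fit is not given here.

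Novel00262 and Novel00059 had the largest rises over the whole span. Novel00262 had 31.98, 29.1 and 29.9 CPM in high initiation and 8.48, 11.2 and 33.4 CPM in low initiation, and 129, 132 and 753 CPM in high termination and 528, 650.0 and 551 CPM in low termination. Termination libraries were all higher, and high termination replicate 3 was again nearer to the low termination libraries than to replicates 1 and 2. The log2 difference was 4.67 ± 0.61 (SE; edgeR adjusted p = 4.54e-05), and 3.88 without that library. Novel00059 rose at each step, from 166, 194 and 192 through 284, 527 and 399 to 1968, 1916 and 1203 CPM in the high strength group and from 69.3, 84.00 and 94.9 through 410.4, 548 and 519 to 2001, 972 and 1219.8 CPM in the low strength group. No library of a later period was as low as any of an earlier period, and the log2 difference of termination from initiation was 3.99 ± 0.19 (SE; edgeR adjusted p = 3.37e-09), and 4.05 without high termination replicate 3. Its partner row Novel00329 is 270 numbers on, and its counts followed those of Novel00059 with an SD of the log2 ratio of 0.056.

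The largest falls over the span were in the pair Novel01123 and Novel01276. Novel01123 had 2593, 960.3 and 1349 CPM in high initiation and 152, 406 and 556 CPM in low initiation. At termination it had the 13.1, 102 and 16.8 CPM given above in the high strength group and 171, 109 and 108 CPM in the low strength group. High initiation replicate 1 alone held 26.9% of its summed CPM and 28.1% of that of Novel01276, the largest such shares among the 200 loci, and low initiation replicate 1 overlapped low termination. The log2 differences were -3.06 ± 0.49 (SE; edgeR adjusted p = 0.000302) and -2.95 ± 0.52 (SE; edgeR adjusted p = 0.000724), and -2.89 and -2.78 without high termination replicate 3.

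Between the strength groups at initiation, 15 of the loci differed by edgeR's quasi-likelihood test, with 11 higher in high initiation and 4 lower, beside 7.97% called of all rows tested, 3.04% higher and 4.93% lower. The share of loci called, 7.5%, was near that background. Of the 15, 10 belong to 5 pairs, so 10 of 162 were called with 1 locus of each pair. The median log2 difference, high minus low, was 0.11 for the loci and -0.0016 for all rows tested. DESeq2 called 25 loci, 21 higher and 4 lower, 84.0% higher against 73.3%. Leaving out single libraries gave 10 to 30 loci, the highest count being that without high termination replicate 3 (26 higher, 4 lower), while a fit to the initiation libraries alone called 32 and limma-voom with library weights 124. The share of all rows called in these alternatives is not given here.

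Among the called loci, Novel00829 and Novel02213 were the most raised in high initiation. Novel00829 had 182, 169 and 169 CPM in high initiation and 27.7, 51.00 and 64.5 CPM in low initiation, and its growth libraries lay at 111, 125 and 115 CPM in the high and 119, 147 and 159 CPM in the low strength group. The initiation groups did not overlap, with all high initiation libraries more than 2-fold above the low ones (log2 difference 1.90 ± 0.29 SE, edgeR adjusted p = 0.000906). Novel02213 had 104, 88.5 and 114 and 24.02, 30.1 and 44.2 CPM, without overlap (1.68 ± 0.31 SE, edgeR adjusted p = 0.00363). In the other direction the largest called differences were in the paired rows Novel02370 and Novel02302. Novel02370 had 57.1, 66.8 and 63.7 CPM in high initiation and 259, 226 and 152 CPM in low initiation, without overlap (-1.67 ± 0.30 SE, edgeR adjusted p = 0.0029). Novel02302 differed by -1.59 ± 0.30 (SE; edgeR adjusted p = 0.00405). None of these 4 calls was lost in any of the 25 alternatives run for each.

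In growth the strength groups did not differ for any of the 200 loci at this threshold. The edgeR quasi-likelihood test, DESeq2 and limma-voom each called 0 loci, 1 locus had an unadjusted edgeR p below 0.05, and 0.00621% of all rows tested were called. The largest estimated differences of the loci were 1.10 higher and -0.85 lower, high minus low on the log2 scale, and the median standard error was 0.28, so small differences were not detectable with 3 libraries a group.

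At termination 14 loci differed by edgeR's quasi-likelihood test, with 8 higher in high termination and 6 lower, beside 14.2% called of all rows tested, 12.2% higher and 1.92% lower. Of the ENSGALG rows of like level 12.3% were higher and 1.47% lower. The median log2 difference of the loci was -0.21 and that of all rows tested -0.0040. The split depended on scaling, with 19 higher and 2 lower under total counts (90.5% higher among the called against 57.1%, median of all rows 0.26) and 13 higher and 15 lower with DESeq2 (46.4%). It also rested on single libraries. Without high termination replicate 3, 24 loci were higher and 67 lower, whereas 0 were called without high termination replicate 1 or 2, without low termination replicate 2 or 3, or in a fit to the termination libraries alone. Limma-voom with library weights called 127. The shares of all rows above are those of the main edgeR fit. Shares of all rows called in these alternatives are not given here, so a shift may not be particular to the loci.

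The largest differences among the called loci at termination were as follows. Novel02143 and Novel00335 were higher in high termination through replicates 1 and 2, while replicate 3 of each was within the range of low termination (log2 difference 3.88 ± 0.91 SE, and 1.99 ± 0.46 SE, edgeR adjusted p = 0.0271 for each). Without replicate 3 the differences were 4.44 and 2.43. The called loci furthest below low termination were the paired rows Novel01465 and Novel01446, 19 numbers apart. Novel01465 had 35.96, 31.7 and 43.4 CPM in high termination and 72.03, 109 and 106 CPM in low termination, and here all 3 high termination libraries were below all low termination libraries (-1.66 ± 0.31 SE, edgeR adjusted p = 0.0271). Novel01446 had 46.5, 45.2 and 55.9 and 86.5, 129 and 125 CPM (-1.50 ± 0.30 SE, edgeR adjusted p = 0.0271). Leaving out replicate 3 of high termination gave -1.91 and -1.72. Each of these 4 calls was lost in 5 of 25 alternatives, with adjusted p-values over the alternatives reaching 0.364.

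For 19 of the loci the difference between strength groups changed with the period (edgeR quasi-likelihood F test with 2 degrees of freedom), 9.5% beside 5.85% of all rows tested and 5.96% of ENSGALG rows of like level. Both rows were called in 7 of the 38 pairs, and 12 of 162 loci were called with 1 locus of each pair. Without high termination replicate 3 the count was 91, and leaving out any other library gave 1 (high initiation replicate 3) to 24 (low initiation replicate 3), while DESeq2 called 35 and limma-voom 146. Shares of all rows called in these alternatives are not given here. Novel00829 had high minus low differences of 1.90 at initiation, -0.31 in growth and -0.57 at termination (edgeR adjusted p of the change = 0.00561). For Novel02370 these were -1.67 at initiation, 0.53 in growth and 0.00 at termination (edgeR adjusted p = 0.0168), a call lost in 4 of 24 alternatives with adjusted p up to 0.0629. Novel01123 and Novel02143 also passed (edgeR adjusted p = 0.0455 and 0.0456), but each lost the call in 17 of 24 alternatives. Leaving out high termination replicate 3 gave these 4 loci adjusted p-values of 0.000670, 0.00195, 0.0105 and 0.000160 (edgeR), in the order given.

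**Figure D5:**
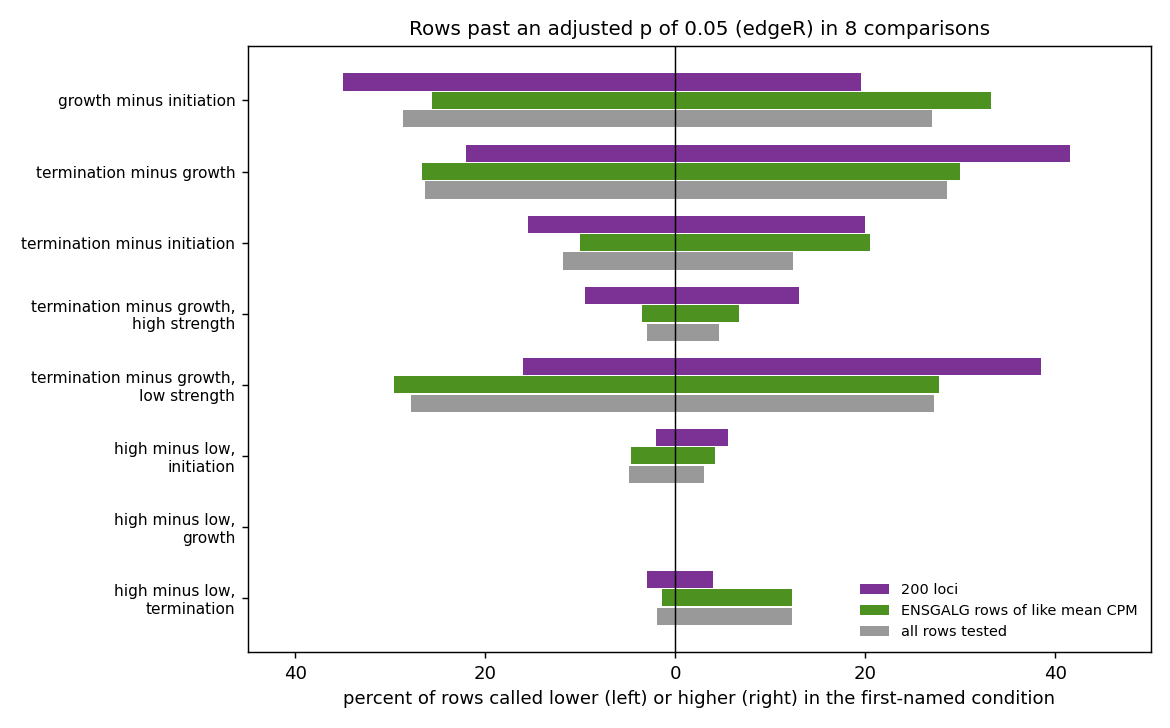
Percent of the 200 loci, of 2517 ENSGALG rows of like mean CPM and of all 16110 rows tested that passed an adjusted p of 0.05 (edgeR), lower to the left and higher to the right of 0, in 8 comparisons. The loci have the longest bar to the left from initiation to growth (35.0%) and to the right from growth to termination (41.5%), no bar in growth between strength groups, and a shorter bar to the right than the others at termination.

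The loci varied more between libraries of 1 group than ENSGALG rows of like level. The median within-group SD of TMM-scaled log2 CPM was 0.36 for the loci and 0.28 for the ENSGALG rows, and 12 loci (6.0%) against 2.19% of the rows had an SD above 1. The highest group mean was more than 4-fold above the lowest for 46 loci (23.0%) against 14.0% of the rows. At the other end, Novel01504, Novel00164 and Novel03555 had the smallest SD of TMM-scaled log2 CPM over all 18 libraries, 0.155, 0.169 and 0.179. Scaled to library totals, Novel02787, Novel02788 and Novel01925 had the smallest, 0.183, 0.185 and 0.190. On that scale Novel01504 ranged from 118 CPM in low termination replicate 2 to 258 CPM in low initiation replicate 1. With TMM factors Novel01504 still fell from initiation to growth by 0.30 on the log2 scale (SE 0.08, edgeR adjusted p = 0.00582). Novel00164, at 234, 251 and 249 CPM in high initiation and 182, 187 and 183 CPM in low initiation, was called between the strength groups at initiation without overlap (0.47 ± 0.11 SE, edgeR adjusted p = 0.0152), a call lost in 4 of 25 alternatives, among them total-count scaling (edgeR adjusted p = 0.0708).

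Counted in another way, 9 loci, singled out after their values were seen, were at least 10-fold apart in 1 library from the nearest other library of its group (4.5%, against 2.62% of the ENSGALG rows of like level), taking counts below 3 as 3. These are not a separate set, since a library that far apart also raises the within-group SD given above. In all 9 a library was low, and in 1 of the 9 a library was also high. This was Novel03562, with 420 CPM in high termination replicate 3 against 23.8 and 40.2 CPM in the other libraries of that group. Directions and libraries are not given here for the ENSGALG rows, so these features may not be particular to the loci. Low growth replicate 3 was the low library for 5 of the 9 loci. Novel00031 had 484, 1858 and 4.82 CPM in low growth and Novel00304, its partner 273 numbers on, had 447, 1718 and 3.88 CPM there, whereas in the other 5 groups Novel00031 ranged from 357 to 2572 CPM. Novel03562 and Novel02782 had 0.125 CPM each in low growth replicate 3, which is 2 counts, against 15.4 and 141 CPM and 20.03 and 42.7 CPM in the other low growth libraries. Novel03336 had 0 counts in high termination replicate 1 and 0.0623 CPM in high growth replicate 3, against 51.4 and 55.5 CPM in the other high growth libraries. Novel01392 had 9.35 CPM in high termination replicate 2 against 549 and 2209 CPM. Whether such libraries lack the locus, its RNA or only the reads counted for it was not tested.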

How the data were processed

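RNA-seq of 18 uterus libraries gave a table in which the authors deposited a count per row and library. Every whole number from 1 to 458 occurs in every library, so the values were taken as counts although the table's name calls them normalized. Genome build galGal4 and the tools Bowtie2, TopHat and TopHat2 appear, with no versions, in the submitters' processing notes. How reads were counted, on which strand, with which annotation release, and how the unannotated loci were assembled is not given in the sources used here. Counts of overlapping loci, antisense loci and paralogs are therefore uncertain. The authors also deposited percent values for quality 30 bases and for GC, per the file headers.

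Each library was grouped by the strength group and period in its labels. Depth was 13322102 to 16125109 counts, at which 3 counts, used as the floor, are 0.186 to 0.225 CPM (counting error only). No per-sample column of the count table was left unused, whereas the deposited numbers of reads before and after filtering enter no result here. A filter of more than 1 CPM in 3 or more libraries left 16110 rows, and all 200 loci passed because their level chose them.

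TMM factors scaled the counts, and edgeR 4.0.16 with limma 3.58.1 under R 4.3.3 ran its quasi-likelihood test on 6 group means fitted over 18 libraries. P-values are two-sided, adjusted by Benjamini-Hochberg over all rows of a comparison, with a threshold of 0.05, and each SE is the size of a log2 change over the root of its F value. The test was checked on simulated counts in which few rows changed, as many up as down, and no library stood apart. That check did not include the interaction test, and it does not cover the dependence on scaling or on single libraries described above. Nearest rows used log2 ratios of counts with 1 count added. Python 3.11.15 and pandas 2.3.3 were used for the tables.

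Loci, rules and comparisons were chosen with earlier results of these data known. Named loci are the 10 highest, those at both sides of rank 200, the 2 largest called rises and falls of each comparison, the 3 with the largest share in 1 library, the 3 with the smallest SD and the 3 most correlated pairs. More are not named because the files pair no identifier with a gene name. Alternatives were DESeq2 1.42.0, limma-voom with library weights, no filter, a replicate block, scaling by total counts or by upper quartiles, fits to 1 period or strength group, each library left out and other rankings of level. Keeping 1 locus of each pair, leaving out Novel03251 and total-scaled levels by period were added after seeing the data.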

Additional observations from a re-analysis of the deposited data

Results flagged for a closer look

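The difference between the strength groups changed with the calcification period for 19 of the 200 loci, by an edgeR quasi-likelihood test of that change itself with Benjamini-Hochberg adjustment. Of all rows tested 5.85% were called, and 15 of the 19 loci belong to pairs of rows with like counts. Novel00829 (edgeR adjusted p = 0.00561) was higher in high than in low initiation, and its estimated differences at the later periods had the opposite sign but were not called. Novel02370 (edgeR adjusted p = 0.0168) was lower in high than in low initiation, and its estimated difference in growth had the opposite sign but was not called. Novel01123 (edgeR adjusted p = 0.0455) had its highest levels in high initiation and its lowest in high termination. Novel02143 (edgeR adjusted p = 0.0456) was higher in replicates 1 and 2 of high termination than in any low termination library, and not in replicate 3. No group had the 4 or more libraries that a check for single outlying samples needs.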

How the results depend on the processing

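Of 32 calls of single loci named by the rule for each comparison, 22 were kept in every alternative run and 10 were lost in at least 1, in 63 of 784 alternatives in all. Among the calls with a direction 0 changed it, while the interaction calls have no direction and were not checked for this. The 10 were the 4 calls between strength groups at termination, 3 interaction calls, and the calls of Novel00112, Novel01123 and Novel01276 from growth to termination in the high strength group. The number of loci called from initiation to growth, from growth to termination and there in the low strength group stayed within 1.5 times in every alternative. The balance of directions was less stable. From growth to termination, and there in the low strength group, more loci rose than fell in the main fit. With total-count scaling more fell than rose in both, as given above. Limma-voom with library quality weights called 124 loci between termination and initiation. From growth to termination in the high strength group the fit to these libraries alone called 17, and leaving out single libraries 20 to 63. At initiation DESeq2 called 25 loci between strength groups, the fit to initiation alone 32, limma-voom 124, and leaving out libraries 10 to 30. At termination these were 28, 0 in the fit to termination alone, 127 and 0 to 91. For the interaction DESeq2 called 35, limma-voom 146, leaving out libraries 1 to 91, and 1 locus of each pair 12. The causes of these shifts were not tested. The counts are of the loci alone, and shares of all rows are given only for the main edgeR fit, so a shift may not be particular to the loci. Without Novel03251 the share of counts held by the loci was 4.54%, 4.75%, 4.66%, 4.38%, 4.52% and 4.27% in high initiation, growth and termination and low initiation, growth and termination. With Novel03251 and TMM-scaled library sizes the share of the 200 loci was 5.86%, 4.79%, 5.95%, 4.58%, 4.69% and 7.71% in the same order. Of the 200 loci 184 stayed when ranked by median CPM, 190 by mean log2 CPM, 198 with TMM-scaled sizes and 197 to 200 without single libraries. The alternative with other pseudocounts did not apply to counts.

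The labels do not say whether replicate numbers pair the libraries, and the values here do not settle it. Deviations from group means correlated at a median of 0.0127 for libraries with the same number (-0.427 to 0.737, n = 45 pairs). For others the median was -0.00834 (-0.657 to 0.543, n = 90), and 8 of 18 libraries correlated best with their own number. With the replicate block 108 loci were called from initiation to growth, 118 from growth to termination (42 in the high and 115 in the low strength group), 73 between termination and initiation, 17, 0 and 14 between strength groups at initiation, growth and termination, and 14 for the interaction.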
